A study of Mus musculus with 192 samples.

Results

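The Nodal pathway genes described here are 8 of the 24264 genes in the molecule count table: the ligands Nodal and Gdf3, the co-receptor Tdgf1, the secreted antagonists Lefty1, Lefty2 and Fst, the signal transducer Smad2 and its intracellular inhibitor Smad7. They were chosen by name. All 8 had molecules, as did 14304 genes in all. Nodal and Gdf3 are ligands of the TGF-beta superfamily, which bind type I and type II activin receptors together with the co-receptor Tdgf1 (Cripto). The receptors phosphorylate Smad2 and Smad3, which join Smad4 and act on target genes in the nucleus. Among the known targets are the antagonists Lefty1, Lefty2 and Smad7, so that the pathway limits itself, and mouse embryonic stem (ES) cells are known to keep it active without added ligand.

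The study measured RNA molecules in single cells of R1, a mouse ES cell line. The cells were grown on irradiated mouse embryonic feeder fibroblasts, separated from them by letting the feeders settle, cleared of dying and dead cells with annexin V beads, and stored frozen. After thawing they were captured in the 96 chambers (wells) of 1 microfluidic chip. There was no genotype, treatment or time contrast. Each well barcode marks a pair of libraries, the original and a further amplified one, and the deposited column does not separate them. All wells came from 1 culture, which is 1 sample, so no p-value was computed, and spreads between wells describe this culture only.

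Levels are molecules per 10000 gene molecules of the well, leaving out spike-ins and repeats. A molecule was counted once whatever the length of its transcript, so levels of different genes are set side by side on that scale. The wells fell into 51 RNA-rich wells with 51390 to 573648 gene molecules (median 98750) and 45 low-RNA wells with 8774 to 35543 (median 22234), with no well between. At the median depth, 1 molecule is worth 0.101 per 10000 in RNA-rich wells and 0.450 in low-RNA wells. The median share of mitochondrially encoded genes was 10.4% in RNA-rich wells and 29.1% in low-RNA wells; its part in the differences between the well groups was not tested, apart from the scaling given with the ratios. All 13 ES cell markers were detected, and Pou5f1 had a molecule in 51 of 51 RNA-rich and 39 of 45 low-RNA wells. The summed level of the 13 ranged from 18.2 to 225.4 in RNA-rich wells (median 87.1) and from 34.8 to 78.6 in low-RNA wells (median 51.2), apart from well H12 at 135.3. Most of this sum was Dppa5a, with medians of 62.1 in RNA-rich and 36.3 in low-RNA wells. The markers did not all go the same way. Medians of Zfp42 (2.93 in RNA-rich and 5.63 in low-RNA wells), Sox2, Nanog, Klf4 and Tdh were higher in low-RNA wells. Those of Pou5f1 (1.78 and 1.01) and the remaining markers were higher in RNA-rich wells.

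Some RNA-rich wells stood apart. In 9 keratin-high wells, Krt8 and Krt18 summed to at least 20 per 10000 (20.5 to 72.2), while the next highest well had 10.8, and the median ES marker sum was 40.2. In these 9 wells, the trophectoderm list, which includes those keratins, summed to up to 73.3, against 1.95 to 11.5 in wells outside both sets, with Elf5 at 0 and Cdx2 in 3 wells. In 2 feeder-high wells, 15 fibroblast markers summed to at least 100 (147.2 and 190.7), the next highest having 70.3. The other 40 RNA-rich wells had a median ES marker sum of 104.8 and fibroblast sums of 4.82 to 36.95. Fibroblast sums were also higher in the keratin-high wells, at 14.3 to 70.3. The 11 primitive endoderm markers summed to a median of 6.09 in keratin-high, 10.1 in feeder-high and 1.47 in the other 40 wells, with Sox17 and Sox7 at 0 in all wells. Sparc, a matrix protein gene of that list, had medians of 4.92, 7.87 and 0.910. Some values are also given without these 11 wells. Values given once can differ by over 1.5 times without them, as did the highest Smad7 level (2.12, or 0.985 in the other 40). Wells C03 and H03 held 319520 and 573648 gene molecules, with 36465 and 55740 spike-in molecules against a median of 7992 in RNA-rich wells, and so weigh most in pooled levels.

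Lefty1 (chromosome 1, 180935022 to 180938400) and Lefty2 (chromosome 1, 180893108 to 180899103) are neighbouring genes on the plus strand of GRCm38, in GENCODE M21. They are close paralogs, which bears on the counts, because a read that fits both may be counted at the wrong gene. Per the table's count of molecules from uniquely matching reads, all 2148 Lefty1 molecules were unique, against 534 of 851 for Lefty2 (62.7%). Lefty2 values are therefore uncertain. Which other locus its remaining reads matched, and so whether Lefty1 was undercounted, was not tested. For Tdgf1 (chromosome 9, 110939603 to 110946158, minus strand), 92.4% of molecules were unique. The other 5 genes had 100%: Nodal (chromosome 10, 61417972 to 61425338, plus strand), Gdf3 (chromosome 6, 122605403 to 122610087, minus strand), Fst (chromosome 13, 114452290 to 114458951, minus strand), and Smad7 and Smad2 on chromosome 18.

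Counting all molecules, the co-receptor and the Lefty antagonists were the most abundant members, and the ligands, Fst and the Smads were low. Over the RNA-rich wells together, Tdgf1 stood at 8.44 per 10000 (95% exact Poisson interval 8.20 to 8.68), Lefty1 at 3.29 (3.14 to 3.44) and Lefty2 at 1.30 (1.21 to 1.39). Gdf3 followed at 1.01 (0.931 to 1.10), and neighbours among these 4 did not overlap within counting error, which is all that these intervals cover. Of the counted molecules, 62.7% were unique for Lefty2 and 100% for Gdf3, so the order of these 2 genes is uncertain. Fst (0.529, 0.472 to 0.592), Smad7 (0.439, 0.387 to 0.496), Nodal (0.385, 0.337 to 0.439) and Smad2 (0.293, 0.251 to 0.340) came next, each interval overlapping that of its neighbour. The spread between wells was much larger than the counting error. Over wells, the mean ± SD was 8.30 ± 4.54 for Tdgf1, 3.19 ± 4.28 for Lefty1 and 1.30 ± 1.50 for Lefty2 (SD, n = 51 wells). It was 1.02 ± 1.09 for Gdf3, 0.671 ± 1.72 for Fst, 0.443 ± 0.375 for Smad7, 0.371 ± 0.291 for Nodal and 0.262 ± 0.305 for Smad2. Within 1 SD, every gene overlapped its neighbour in this order.

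**Figure D1:**
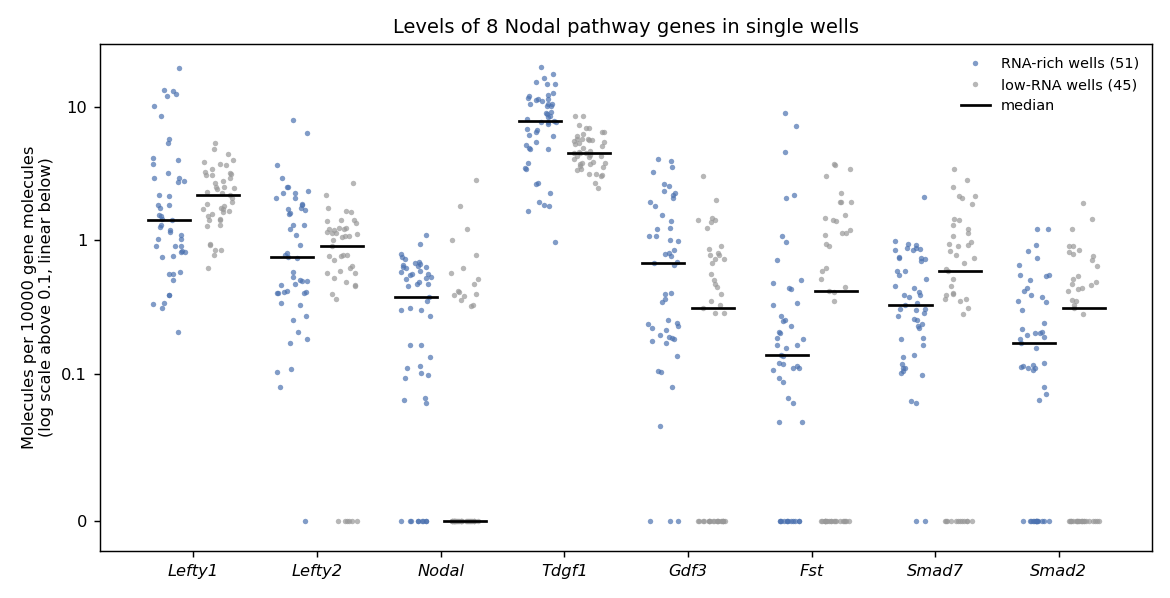
Level of each gene in every well, as molecules per 10000 gene molecules (vertical axis, log above 0.1 and linear below), for 51 RNA-rich wells (blue) and 45 low-RNA wells (grey); black lines are medians. Lefty1 and Fst reach far above their medians in a few RNA-rich wells, up to 19.7 and 9.16, and the groups overlap for every gene; per spike-in molecule instead of per gene molecule, all 8 pooled levels were higher in RNA-rich wells.

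Of the ligands, Nodal was thinly counted. Its level in RNA-rich wells ran from 0 through a median of 0.379 to 1.10 in well D07, with a molecule in 42 of 51 wells. In low-RNA wells it had 27 molecules in 17 of 45 wells, a median of 0 and a highest level of 2.85. The ranges overlap, and the few high levels in low-RNA wells rest on 1 well with 7 molecules and others with fewer. Gdf3, a ligand related to Nodal, was detected in 48 of 51 RNA-rich wells, from 0 through a median of 0.672 to 4.08 in well G05. In low-RNA wells it was found in 25 of 45, with a median of 0.311 and a highest level of 3.06. That level was in H12, a well with 926 spike-in molecules and a mitochondrial share of 7.58%. Of the RNA-rich wells, 4 lay above it, and 10 lay above the next low-RNA well (2.03).

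Tdgf1, the co-receptor through which Nodal and Gdf3 signal, had a molecule in all 96 wells. Its level ran from 0.979 through a median of 7.93 to 20.1 (well H06) in RNA-rich wells and from 2.50 through 4.55 to 8.58 in low-RNA wells. Of the RNA-rich wells, 22 lay above the highest low-RNA well and 6 below the lowest. The 6 were 4 keratin-high wells and both feeder-high wells, and none of the other 40 lay below.

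Lefty1 likewise was found in all 96 wells. The RNA-rich wells ran from 0.206 through a median of 1.43 to 19.7, and the low-RNA wells from 0.617 through 2.19 to 5.40. All low-RNA wells lay inside the RNA-rich range, with 9 RNA-rich wells above it and 10 below it. The highest RNA-rich wells were B10 (19.7, 164 molecules), G09 (13.5), B01 (13.2), D11 (12.7), B05 (12.2), A07 (10.2) and A05 (8.67), followed by D05 at 5.76. The 7 wells named before D05 held 48.5% of the Lefty1 molecules of the RNA-rich wells. None of the 7 was keratin-high or feeder-high.

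Lefty2, the second Lefty gene, had its highest levels in B05 (7.99) and B10 (6.38), both among those wells. Its RNA-rich wells ran from 0 through a median of 0.757, with a molecule in 50 of 51, and its low-RNA wells from 0 through 0.915 to 2.69, in 39 of 45. In B01, the third highest for Lefty1, Lefty2 had 4 molecules (0.401), rank 40 of 51. Tdgf1 was at 17.7 in G09, 16.6 in A05 and 15.7 in A07, ranks 2, 3 and 4 of 51, but at 5.18 in B10, rank 37. For Lefty2 and Tdgf1, wells high in Lefty1 were thus often, but not always, high. For Nodal and Fst the ranks of the 7 wells ran from 3 to 43 and from 10 to 40.

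Fst, which encodes follistatin, a secreted protein that binds activins, was near 0 in most wells and high in a few. In RNA-rich wells it had a median of 0.137, with a molecule in 39 of 51 wells, and reached 9.16 in D01 (89 molecules), 7.20 in H08 (38 molecules) and 4.59 in E02 (25 molecules). With B09 (2.19) and D07 (2.08), these 5 highest wells held 62.1% of the Fst molecules of the RNA-rich wells. E02 was feeder-high, with a fibroblast sum of 147.2. D01 and H08 were not, with fibroblast sums of 10.1 and 12.3 and ES marker sums of 30.8 and 52.8, below the RNA-rich median. In low-RNA wells Fst ran from 0 through 0.417 to 3.77, in 25 of 45 wells, and 3 RNA-rich wells lay above that range.

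Smad7, the inhibitory Smad, had a median of 0.328 and a highest level of 2.12 (well A09, keratin-high) in RNA-rich wells, with a molecule in 49 of 51. Its low-RNA wells ran from 0 through 0.586 to 3.42, with a molecule in 33 of 45. Smad2, the receptor-activated Smad, ran from 0 through 0.168 to 1.22 (well D08, keratin-high) in RNA-rich wells, in 37 of 51. Low-RNA wells ran from 0 through 0.311 to 1.93, in 24 of 45. For both genes no RNA-rich well lay above the low-RNA range, but the top of that range rests on few molecules. It was 6 Smad7 molecules in well H02 and 5 Smad2 molecules in well E03.

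Shares of wells with a molecule depend on depth. With every well thinned to 15000 gene molecules, which leaves out 6 low-RNA wells, Lefty1 was found in 82.6% of RNA-rich and 97.0% of low-RNA wells, against 100% in both before. Smad7 was found in 44.3% and 64.8%, Fst in 30.3% and 52.3%, and Nodal in 39.4% and 26.7%. Lefty2 was found in 66.85% and 75.47%, Smad2 in 28.22% and 38.75%, Gdf3 in 57.76% and 44.96%, and Tdgf1 in 99.13% and 99.98%. Thus Lefty1, Lefty2, Smad7, Fst and Smad2 were found in a larger share of low-RNA than RNA-rich wells at equal depth. Nodal and Gdf3 were found in a smaller share, and Tdgf1 in nearly all wells of both groups. No cell type known to lack these genes was on the chip in number; Tdgf1 had 10 molecules in each of the 2 feeder-high wells (1.81 and 1.84 per 10000), and the part of free RNA in such counts was not tested.

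Between the well groups, 1 of the 8 genes, Gdf3, had a pooled level at least 2 times higher in RNA-rich wells, beside 13.0% of the 7292 genes tested. None of the 8 was at least 2 times lower, beside 4.00%. The Gdf3 ratio was 2.13 (95% counting interval 1.58 to 2.92), or 2.42 without C03, H03 and H12, the 3 wells of outlying spike-in totals. The median ratio of all tested genes was 1.33, and Nodal (1.44, 0.966 to 2.24), Lefty1 (1.45, 1.26 to 1.67) and Lefty2 (1.39, 1.12 to 1.75) lay near it. Tdgf1 was higher at 1.73 (1.58 to 1.90). Per gene molecule, Fst (0.645, 0.504 to 0.832), Smad7 (0.534, 0.415 to 0.693) and Smad2 (0.759, 0.534 to 1.10) were lower in RNA-rich wells, but per spike-in molecule their pooled levels were higher (2.07, 1.72 and 2.44). The median well did not show this rise for Fst and Smad2. Per 1000 spike-in molecules, medians in RNA-rich and low-RNA wells were 0.148 and 0.152 for Fst and 0.150 in both for Smad2. For Smad7 they were 0.385 and 0.187. Scaling to spike-ins multiplies every pooled ratio by 3.21 (1.68 on the log2 scale) and puts the median of all genes at 4.27. With mitochondrially encoded genes left out of the total the shift was -0.34 on the log2 scale and the median of all genes 1.05. Gdf3 then fell to 1.68, and Smad7, at 0.423, was the 1 gene past 2 times.

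For the Lefty genes, pooled and median levels per gene molecule gave opposite directions. The pooled Lefty1 level was higher in RNA-rich wells, yet the median RNA-rich well stood at 0.654 of the median low-RNA well, and for Lefty2 at 0.828. Per spike-in molecule the direction of the medians turned: the median well had 1.74 Lefty1 molecules per 1000 spike-in molecules in RNA-rich and 0.769 in low-RNA wells, and 0.751 and 0.320 of Lefty2. Without the 7 wells highest in Lefty1, the pooled RNA-rich level was 0.855 of the low-RNA level for Lefty1, and still 1.08 times it for Lefty2. These wells were picked by Lefty1 level and no low-RNA well was left out, so a lower ratio for Lefty1 was fixed in advance.

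Spread between RNA-rich wells was compared with that of the spike-in RNAs, which were added with the lysis buffer to every well. The noise ratio is the squared coefficient of variation of a gene over that fitted to spike-ins of the same mean. A gene was called above the noise where its mean was at least 1 molecule and the ratio at least 2, also without its highest well. Of the 8 genes, all with a mean of at least 1, 5 were above the noise, beside 7.0% of 7768 genes. Lefty1 had a ratio of 18.5 (14.8 without its highest well), rank 39 of 7768, and Fst 15.2 (10.5), rank 56. Tdgf1 (6.99), Lefty2 (5.87) and Gdf3 (4.03) followed at ranks 144, 188 and 321. The ligand Nodal (0.801) and the Smads, Smad7 (1.11) and Smad2 (1.25), varied no more than the median gene (1.36).

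**Figure D2:**
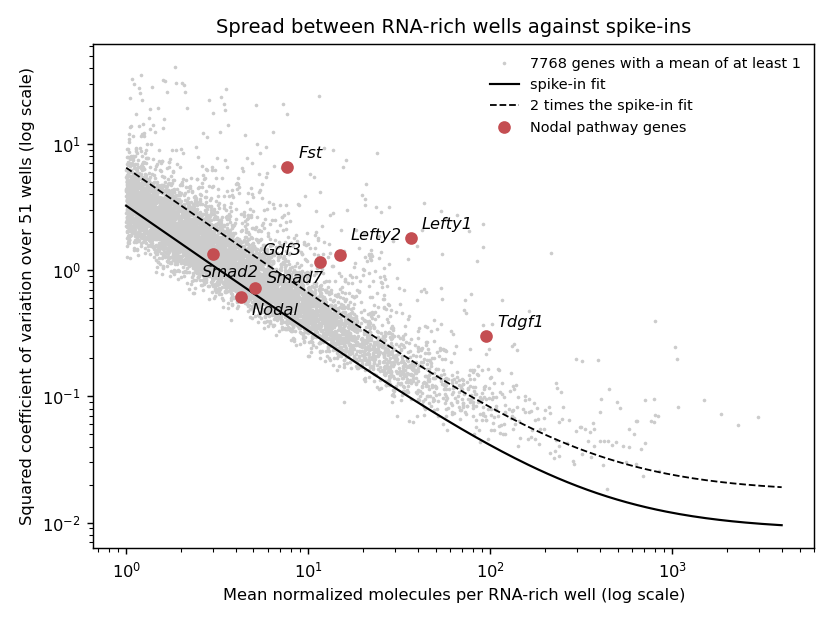
Squared coefficient of variation over the 51 RNA-rich wells (vertical axis) against mean normalized molecules per well (horizontal axis), both on log scales, for 7768 genes (grey), the 8 Nodal pathway genes (red), the spike-in fit (solid) and 2 times that fit (dashed). Lefty1, Fst, Tdgf1, Lefty2 and Gdf3 lie above the dashed line, Nodal, Smad7 and Smad2 below it.

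The same 5 genes were above the noise in the 40 RNA-rich wells that were neither keratin-high nor feeder-high, beside 4.32% of 7750 genes. There Lefty1 had a ratio of 18.7 and Fst 17.6, while Tdgf1 was at 4.19. In low-RNA wells, 0 of the 6 genes with a mean of at least 1 were above the noise, beside 0.594% of 2695 genes. The highest ratio there among the 6 was 0.987, for Fst, and Lefty1 stood at 0.392, when the median of all genes was 0.473. The coefficient of variation of Lefty1 was 134.0% over RNA-rich and 48.6% over low-RNA wells, and that of Tdgf1 54.7% and 30.1%.

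At equal depth the contrast between the well groups remained for the Lefty genes, Tdgf1 and Fst. After thinning to 15000 gene molecules, the squared coefficient of variation over 1/mean, which is 1 for pure counting noise, was 9.51 for Lefty1 in RNA-rich wells and 1.23 in low-RNA wells. It was 4.72 and 0.954 for Tdgf1, and 3.30 and 0.937 for Lefty2. Fst had 7.58 and 2.32. Gdf3 had 2.57 and 1.64, the smallest contrast among these genes. All 5 of these genes, which are those with a thinned mean of at least 1 in RNA-rich wells, reached 2 there, beside 25.9% of 2258 genes. In low-RNA wells Fst alone did so among the 5 with a mean of at least 1, beside 12.6% of 1903. Nodal (1.16 and 2.04), Smad7 (1.30 and 1.59) and Smad2 (1.48 and 1.30) had thinned means under 1 in both groups, apart from Smad7 in low-RNA wells. Of these 3, Nodal and Smad7 had the higher value in low-RNA wells. The medians of all genes were 1.60 in RNA-rich and 1.28 in low-RNA wells.

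**Figure D3:**
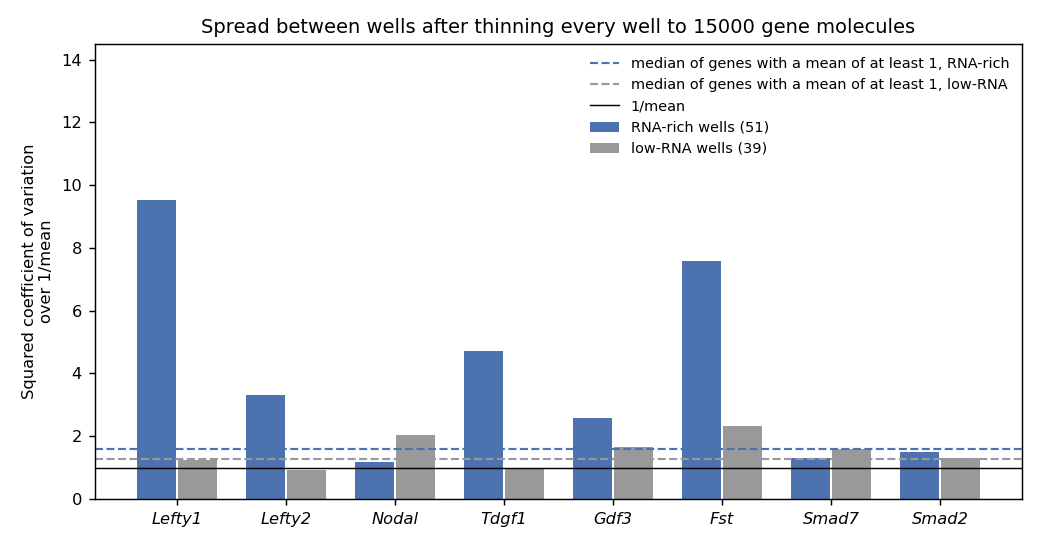
Squared coefficient of variation over 1/mean (vertical axis) for each gene after thinning each well to 15000 gene molecules, in 51 RNA-rich wells (blue) and 39 low-RNA wells (grey); the black line at 1 is pure counting noise, and dashed lines are the medians of all genes with a mean of at least 1. Lefty1 has the tallest bar, 9.51, in RNA-rich wells and 1.23 in low-RNA wells.

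Lefty1 had the highest rank correlations among the 8 genes, with Tdgf1 and Lefty2. All 28 pairs of the 8 genes were computed, as descriptions over wells that share a chip, a culture and sequencing. Over the 51 RNA-rich wells, Spearman's rho was 0.470 for Lefty1 and Tdgf1 and 0.431 for Lefty1 and Lefty2. The other 26 pairs ran from -0.319 (Lefty2 and Fst) to 0.205 (Tdgf1 and Gdf3, or -0.0358 in the 40 other wells), with a median of 0.0121. By Pearson's r of log2 levels, Nodal and Fst stood at 0.360 (rho 0.102), after Lefty1 with Lefty2 (0.566) and with Tdgf1 (0.414). In the 40 other wells Nodal and Fst stood at 0.425 (rho 0.106), above Lefty1 and Tdgf1 (0.382). The wells highest in Fst, D01 and H08, held 7 and 5 Nodal molecules, ranks 5 and 2 of 51 for Nodal. Their part in the r of Nodal and Fst was not tested. The ligand Nodal had a rho of -0.124 with Lefty1, in counts too sparse to read. In the 40 wells that were neither keratin-high nor feeder-high, rho was 0.485 for Lefty1 and Lefty2 and 0.389 for Lefty1 and Tdgf1. Of the 10 wells highest for each gene, Lefty1 shared 5 with Lefty2 and 6 with Tdgf1. In the 45 low-RNA wells, rho was -0.0443 for Lefty1 and Lefty2 and -0.0253 for Lefty1 and Tdgf1, in counts with medians of 4 and 2 Lefty1 and Lefty2 molecules per well. How far reads shared between the Lefty genes enter their relation was not tested.

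**Figure D4:**
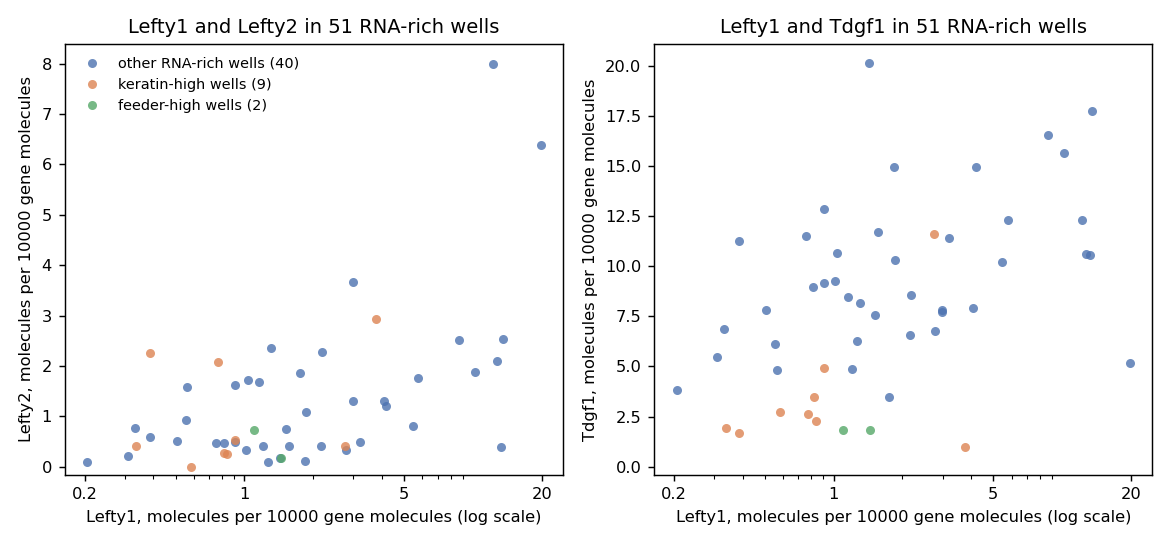
Lefty1 level (horizontal axis, log scale) against Lefty2 level (left, vertical axis) and Tdgf1 level (right, vertical axis) in 51 RNA-rich wells, all as molecules per 10000 gene molecules; colours mark 40 other wells (blue), 9 keratin-high wells (orange) and 2 feeder-high wells (green). Wells high in Lefty1 tend to be high in both genes (rho 0.431 and 0.470), and 8 of the 9 keratin-high wells lie below the median Tdgf1 level of the 40.

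The genes most like each member were sought over the 40 wells by Pearson's r of log2 levels, among the 3148 genes whose mean reached 5 molecules; the first of so many is a description, not a finding. For Lefty1 the first was Lefty2 (r = 0.595), followed by Ywhab (0.595), Ctsl (0.555) and Trim27 (0.538). For Lefty2 they were Kif22 (0.603), Lefty1 (0.595), Ctgf (0.584) and Snrnp200 (0.546). So each Lefty gene stood first or second in the other's order, and without the 2 wells highest in Lefty2 their r was 0.438.

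For Tdgf1 the 4 genes were Avpi1 (0.552), 0610010K14Rik (0.535), Snrpa1 (0.499) and AI314976 (0.499), and for Gdf3 Ooep (0.589), Spcs2 (0.555), Enah (0.548) and Ccnb1 (0.540). Ccnb1, a cyclin of mitosis, had 13.1% of its molecules from unique reads and is uncertain. Over all 51 RNA-rich wells Snrpa1 fell to 0.160 and AI314976 to 0.246 with Tdgf1, and Ctsl to 0.248 with Lefty1. For Smad7 they were Atad3a (0.666), Gldc (0.583), Baz2a (0.576) and Ddx54 (0.543). For Fst they were Arhgap5 (0.726), Larp1 (0.667), B4galt6 (0.661) and Dst (0.592), but without its highest wells, D01 and H08, these dropped to 0.363, 0.308, 0.139 and 0.165. The Fst likeness thus rests on those 2 wells.

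In the keratin-high wells, 4 of the 8 genes had a pooled level at least 2 times lower than in the 40 other wells, beside 8.34% of 7313 genes, and Smad2 was at least 2 times higher, beside 8.75%. Tdgf1 stood at 3.92 against 9.56, a ratio of 0.410 (0.369 to 0.455), and 7 of the 9 keratin-high wells and both feeder-high wells lay below the lowest of the 40. Gdf3 stood at 0.394 against 1.16 (ratio 0.339, 0.240 to 0.468), with 8 of 9 wells under the median of the 40. Pooled levels of Lefty1 (0.298, 0.245 to 0.360) and Fst (0.303, 0.174 to 0.494) were lower too, but their levels in the 40 wells rest on few wells. For Lefty1, 7 of 9 keratin-high wells lay under the median of the 40, but for Fst only 4 did. The median Fst level was 0.137 in keratin-high wells and 0.128 in the 40. Lefty2 had a ratio of 0.688 (0.550 to 0.853). Smad2 stood at 0.621 against 0.227 (2.73, 1.97 to 3.77), with 2 of 9 wells above the highest of the 40 and 3 below their median. Of its 63 molecules in the keratin-high wells, D08 held 19 and G12 held 18, while A09 held 0. Nodal (1.28, 0.911 to 1.77) and Smad7 (1.33, 0.973 to 1.80) had intervals that include 1. These intervals cover counting error only, and the 9 wells are cells of the same culture. Fibroblast sums had a median of 40.5 in these 9 wells and 8.66 in the 40, and their part in these differences was not tested.

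The rest of the pathway was set beside these genes through a list of 48 Nodal, activin and TGF-beta genes, of which 40 are not among the 8. Of the 48, 40 had a molecule in any well. The ligands Gdf1, Tgfb1 and Tgfb3, the co-receptor Cfc1, the type I receptors Acvr1b and Acvr1c and the antagonists Cer1 and Fstl3 were listed at 0 in all wells, which allows a pooled level of up to 0.00514 per 10000 in RNA-rich wells (3 molecules). Each of these 8 has a row in the table. The limit holds only if reads of these genes could be counted. Acvr1b encodes the main type I receptor for Nodal. For it and the others of these 8, whether the 0 reflects the cells or the counting of reads was not tested. Of the receptors counted, the type II receptor Acvr2b was highest at 0.118, and the convertase Furin, one of the proteases that cleave the Nodal precursor, stood at 0.105. Among ligands Gdf3 was the highest. Fgf8, at 0.326, was the highest of the genes listed under no role but that of target.

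**Figure D5:**
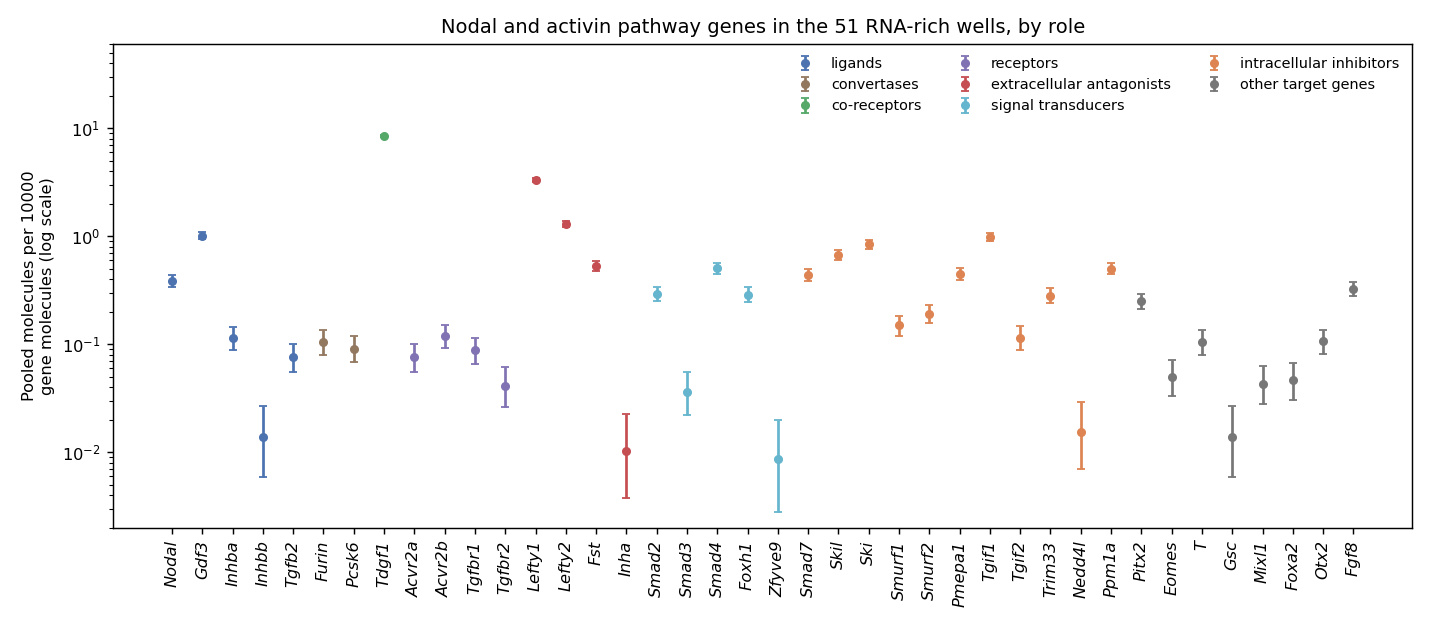
Pooled level of the 40 pathway genes with a molecule over the 51 RNA-rich wells (vertical axis, log scale, molecules per 10000 gene molecules; bars are 95% exact Poisson intervals), coloured by role. Tdgf1 at 8.44 and Lefty1 at 3.29 stand above all other genes of the list.

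Tdgf1 and Lefty1 were followed by Lefty2, Gdf3 and intracellular inhibitors. Of the latter, the corepressors Tgif1 (0.985), Ski (0.838) and Skil (0.672), the phosphatase Ppm1a (0.499) and Pmepa1 (0.445) had a mean of at least 5 molecules per RNA-rich well, as did Smad4 (0.504), the partner of Smad2. Of the 20 genes outside the 8 with a mean of at least 1, 2 were above the noise, Pmepa1 (3.43) and Tgif1 (3.62), beside 7.0% of all genes. Pmepa1 fell to 2.30 without well A09, which is keratin-high, and Tgif1 to 2.06 without well E02, which is feeder-high. The median noise ratio of the 20 was 1.40, beside 1.36 for all genes. Of the 16 outside the 8 with a measured ratio between the well groups, 3 were at least 2 times higher in RNA-rich wells and 1, Fgf8 (0.491), at least 2 times lower, with a median of 1.14, where all genes had 13.0% and 4.00%. The 3 were Inhba (2.29), Smurf1 (3.01) and Tgif2 (2.90), each with at most 5 molecules in low-RNA wells, and Tgif2 with 47.9% of its molecules from unique reads. Inhba, which encodes the activin A subunit, reached 6.51 in feeder-high well D02, which held 36 of its 66 molecules in RNA-rich wells. Its counting interval, 0.932 to 7.27, includes 1, and without D02 its ratio was 1.05.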

How the data were processed

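The authors deposited molecule counts (counts of unique molecular identifiers) per feature and cell barcode. A read that matched several places was counted at the exonic one nearest a transcript's 5' end, per the file headers. Bowtie and the build mm10 (GRCm38) are named in the submitters' processing notes. Per the labels' protocols, cDNA was made with template switching and 21 cycles of PCR. Each of 96 columns was matched to its well by barcode. The rows neither of spike-ins (96) nor of repeats (1554) were summed to give gene molecules per well, which set the precision. All 96 wells were kept; chamber images were not used here, and no doublet caller was run.

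Members and lists were chosen with earlier results of these data known. Levels are per 10000 gene molecules. Tested genes had a pooled level of at least 0.1 for ratios between well groups and a mean of at least 1 for noise. For noise, a gamma model with identity link, a/mean + b, was fitted to the squared CV of those spike-ins whose mean reached 0.1. Thinning was averaged over 20 draws. Intervals are 95%, exact Poisson or conditional binomial, and cover counting error only. Genes named were the 8 members, the 4 genes most like each member with a mean of at least 5 (log2 of level + 1), pathway genes with a mean of at least 5 and the highest of each role; other genes named were chosen after their values were seen. Alternatives changed the scaling, the wells used, the noise threshold and the correlation. The noise script was tested on simulated data. Coordinates are those of GENCODE M21. A sequence comparison of the Lefty genes is not reported here. Tools were Python 3.11.15, numpy 2.4.6, pandas 2.3.3, scipy 1.17.1, statsmodels 0.14.6 and matplotlib 3.10.9.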

Additional observations from a re-analysis of the deposited data

How the results depend on the processing

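The number of the 8 genes with a pooled level at least 2 times apart between RNA-rich and low-RNA wells was 1 per gene molecule and 7 per spike-in molecule, all but Smad7. It was also 1 without keratin-high and feeder-high wells, without the 3 wells of outlying spike-in totals, by the mean of single wells, and with mitochondrially encoded genes left out, where the gene was Smad7 in place of Gdf3. The number above the noise was 5 under 5 of the 6 alternatives tried and 4 after thinning to 50000 gene molecules, where Gdf3 dropped out. That thinning left the spike-in fit at full depth, and the share of all genes above the noise fell from 7.0% to 2.28%. The rank correlation of Lefty1 and Lefty2 over RNA-rich wells was 0.639 as Pearson's r of levels, -0.0443 in low-RNA wells and 0.364 without the highest well of either gene; the cause of these differences was not tested. Single noise ratios moved by more than the limit in 17 of 40 alternatives and single ratios in 13 of 40. Without keratin-high and feeder-high wells, the ratio between the well groups was 1.68 for Lefty1 and 1.96 for Tdgf1, and the noise ratio of Smad2 0.895. Alternatives of the likeness and of the thinned spread, and those leaving out H12, D02 or the 7 wells highest in Lefty1, were added after seeing the data. Depth limits Nodal, Smad2 and Smad7 most, at means of 3.35 to 5.02 molecules per RNA-rich well. No paired analysis was possible because each deposited column stands for both libraries that share a number.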
